A study of Mus musculus with 4 samples.

Results

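The antioxidant defence genes described here are 37 genes of the NRF2, glutathione and thioredoxin systems. They were chosen by symbol from a list made for this work, with earlier results of these data known. All 37 were found among the 25759 gene symbols of the count table and all 37 passed the filter on low counts, along with 13306 genes in all. RNA came from alveolar epithelial type II cells, the surfactant-making cells of the lung, of C57BL/6 mice aged 14 weeks. One genotype was wild type (WT, 2 libraries). The other, labelled Sftpc-mTOR transgenic (mTOR Tg, 2 libraries), carried a conditional transgene for active mTOR, the growth kinase, under the name of the surfactant protein C gene Sftpc. The inducing agent or recombinase, the sex of the mice, how the cells were isolated and whether animals were pooled is information not given in the sources used here. Nothing in the labels says that replicates came from separate mice, and the spread behind each p-value may therefore be technical.

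NRF2, encoded by Nfe2l2, is a transcription factor that KEAP1 holds in the cytoplasm and sends to the proteasome. Oxidants and electrophiles modify KEAP1, and NRF2 then enters the nucleus, pairs with small MAF proteins and binds antioxidant response elements in front of its targets. Those targets make and recycle glutathione and thioredoxin, the thiol carriers that peroxidases, peroxiredoxins and transferases use to remove peroxides and reactive chemicals, which matters in an organ exposed to inhaled oxygen and pollutants.

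The libraries held 18146693 to 21972124 counts, and 15985 to 16218 genes were detected in each. mTOR Tg replicate 1 stood apart: 1949 of 13306 genes lay over 2-fold away from mTOR Tg replicate 2, compared with 264 between the WT libraries. Short transcripts lay higher in mTOR Tg replicate 1: its median log2 deviation from the WT mean was 0.42 over genes in the lowest quartile of length and -0.52 over those in the highest, while in mTOR Tg replicate 2 these medians were -0.0038 and 0.0083. Of the 37 antioxidant genes, 27 fell in that lowest quartile. Summed over 8 markers, transcripts of club cells, the secretory cells of the airway, were at 83262 and 89728 CPM (counts scaled to the library total) in WT, with 159638 CPM for mTOR Tg replicate 1 and 55952 CPM for mTOR Tg replicate 2. The 8 ciliated cell markers summed to 1118 and 1343 CPM in WT, with 2511 CPM for mTOR Tg replicate 1 and 1197 CPM for mTOR Tg replicate 2. Scgb1a1 made up most of the club cell sum, and Tppp3 and Foxj1 most of the ciliated cell sum. Not every marker followed its sum, since the club cell marker Krt15 was highest in WT replicate 2. The ciliated cell markers Ccdc39 and Dnah5 were lowest in mTOR Tg replicate 1. After a correction for transcript length, 7 of 8 ciliated cell markers were higher in mTOR Tg replicate 1 than in replicate 2. By that measure 49.1% of all tested genes were higher in replicate 2. The log2 fold change between genotypes then went from -0.22 to 0.35 in Dnah5 and from -0.17 to -0.08 in Ccdc39. Type I cell markers, 6 in number, summed to 1479 and 1386 CPM in WT, 1876 CPM in mTOR Tg replicate 1 and 1572 CPM in replicate 2. Their log2 fold changes were positive in 6 of 6 (50.9% of all genes), but in only 3 of 6 without mTOR Tg replicate 1. The 6 endothelial markers summed to 109 and 118 CPM in WT and to 67.4 and 57.5 CPM in mTOR Tg, and 4 of 6 were lower without overlap (17.0% of all genes). All 10 type II markers were detected in every group, at 101564 to 127938 CPM in sum, and 10 of 10 were lower in mTOR Tg replicate 1 than in replicate 2. Of 10 leukocyte and macrophage markers, Cd3e, C1qb and Adgre1 had no count in any library and 9 had too few counts to be tested; the tenth, Lyz2, is also made by type II cells. In such bulk samples fewer cells of a type and less RNA per cell cannot be told apart, and the part of these differences in the results below was not tested, except where values with a length correction or without a library are given.

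Antioxidant genes lay mostly above WT, and from gene to gene a different mTOR Tg library was the higher one. Sulfiredoxin, the glutamate-cysteine ligase subunits, thioredoxin reductase, haem oxygenase and NQO1 were highest in mTOR Tg replicate 2, at 1.59 to 3.0 times the WT mean. Most transferases, peroxidases and peroxiredoxins were highest in mTOR Tg replicate 1, at up to 2.13 times. Replicate 2 was the higher of the mTOR Tg libraries in 13 of 37 genes (49.5% of all tested genes), and in 19 of 37 with a correction for transcript length (49.1%), so the order moved with the correction. The log2 fold change between genotypes was above 0 in 34 of 37 genes (31 with a correction for transcript length, 26 without mTOR Tg replicate 1), with a median of 0.44, where 50.9% of all tested genes were above 0 and their median was 0.01. The edgeR quasi-likelihood test with Benjamini-Hochberg adjustment over all 13306 genes called 0 of the 37, and its background was 0% of genes in either direction. At an unadjusted p under 0.05 in edgeR 4 of the 37 were found, namely Srxn1, Gpx2, Gstp2 and Hmox1, all higher, where 1.54% of all genes were higher and 0.917% lower at that level. DESeq2 also called 0 of the 37 after adjustment, with a background of 0.0676% higher and 0.0225% lower, and found 6 at an unadjusted p under 0.05, all higher, where 1.70% of all genes were higher and 0.691% lower at that level.

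Groups did not overlap in 21 of the 37 genes: in 19 the mTOR Tg values were the higher ones, against 17.6% of all tested genes, and in 2 the lower ones, against 17.0%. With a correction for transcript length these counts were 17 above and 4 below, with 18.4% and 17.8% of all genes. The median deviation of the 37 genes from the WT mean was 0.44 in mTOR Tg replicate 1 and 0.18 in mTOR Tg replicate 2, and after the length correction it was 0.30 and 0.18. The WT libraries deviated by -0.01 and 0.01. These are equal and opposite by construction, since the WT libraries form the mean, so they are not on a like footing with the mTOR Tg values. Of all counts the 37 genes together took 0.714% and 0.740% in the WT libraries, and 0.914% and 0.844% in the mTOR Tg ones. The median log2 fold change was 0.17 without mTOR Tg replicate 1 and 0.44 when replicate 2 was left out instead.

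**Figure D1:**
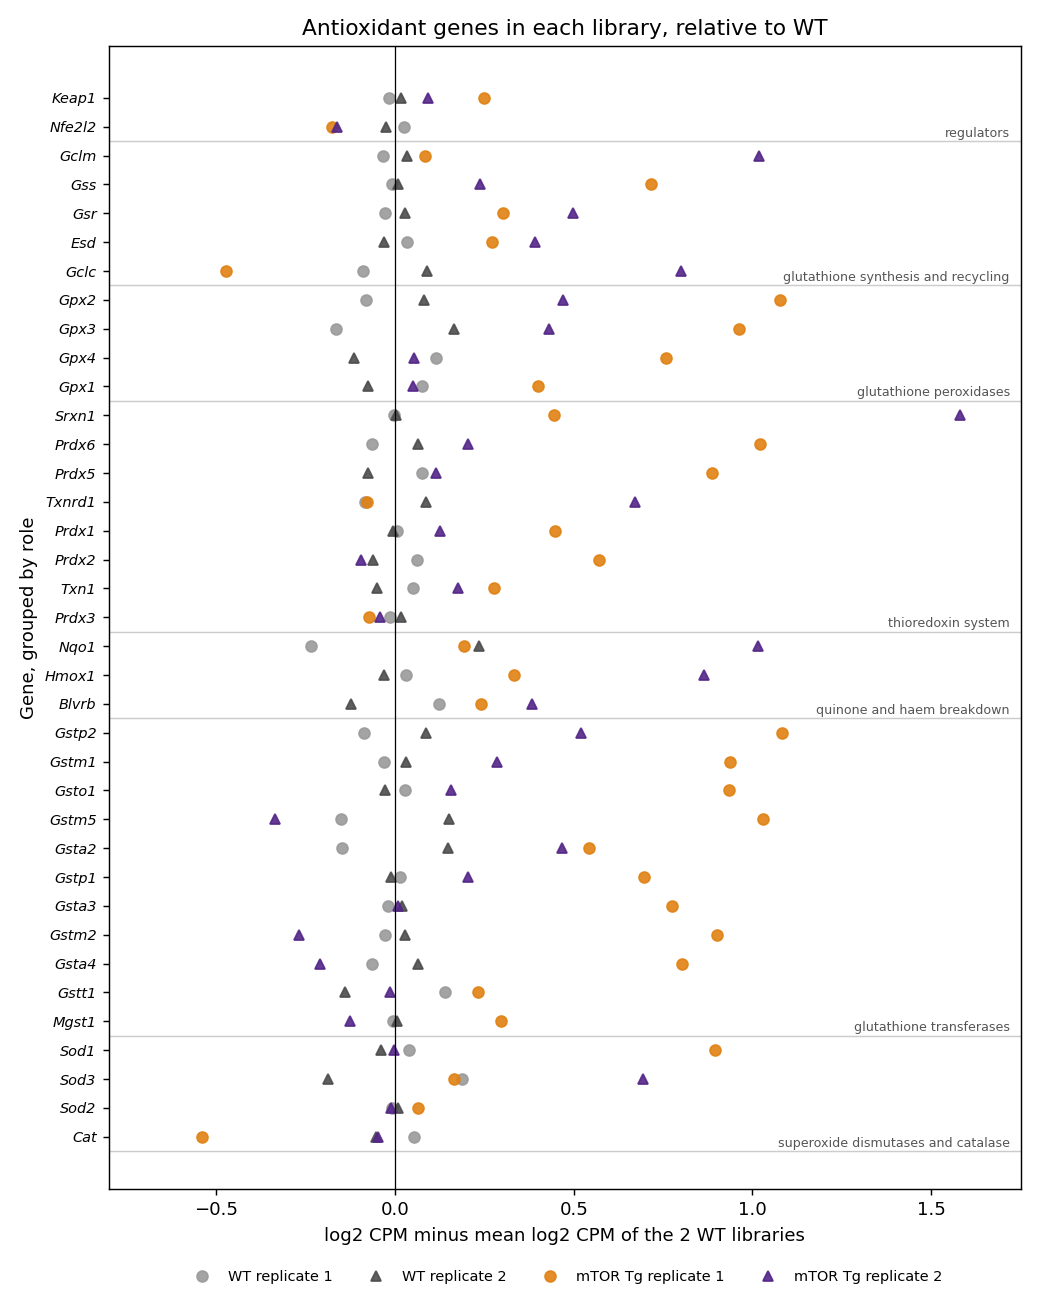
Each row is a gene, grouped by role, and each mark a library; the horizontal axis is log2 CPM minus the mean log2 CPM of the 2 WT libraries. Srxn1 lies farthest right, at 1.58 in mTOR Tg replicate 2 (purple triangles), while the transferases are led by mTOR Tg replicate 1 (orange circles).

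To see the DNA that NRF2 is known to read, promoters were searched for the core of the antioxidant response element, TGACNNNGC on the strand of the gene or its reverse, GCNNNGTCA. RefSeq promoter windows (GRCm38.p6, from 250 bases before to 50 bases after a start site) were at hand for 31 of the 37 genes. The letters were found in 9 of these 31 genes, a share of 29.0%, and in 3781 of all 27025 genes of the RefSeq promoter table, a share of 14.0%. The 9 were Gclm, Txnrd1, Srxn1, Prdx1, Nfe2l2, Gsta3, Gstm5, Mgst1 and Sod1. A match of this kind is a description of letters and not a bound site. The stretches shown come from a ligase subunit and a reductase that were highest in mTOR Tg replicate 2 (Gclm, Txnrd1), from a transferase and a dismutase that were highest in replicate 1 (Gsta3, Sod1), from a peroxiredoxin (Prdx1) and from the gene of NRF2 itself, so that the same letters can be compared across genes with different values. Each runs 5′ to 3′ on the strand of the gene, with the match in capitals.
Gclm: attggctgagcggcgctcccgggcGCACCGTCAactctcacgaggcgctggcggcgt
Txnrd1: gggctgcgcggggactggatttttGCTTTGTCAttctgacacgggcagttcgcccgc
Prdx1: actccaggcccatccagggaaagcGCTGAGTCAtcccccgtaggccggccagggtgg
Nfe2l2: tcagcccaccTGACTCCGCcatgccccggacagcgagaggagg
Gsta3: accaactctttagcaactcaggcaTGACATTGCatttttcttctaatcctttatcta
Sod1: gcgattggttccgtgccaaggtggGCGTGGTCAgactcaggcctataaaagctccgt
They lie at chr3:122245399-122245455 (Gclm, plus strand), chr10:82859090-82859146 (Txnrd1, plus), chr4:116685442-116685498 (Prdx1, plus), chr2:75704871-75704913 (Nfe2l2, minus), chr1:21240440-21240496 (Gsta3, plus) and chr16:90220682-90220738 (Sod1, plus). The matches begin 134, 92, 133, 240, 121 and 56 bases upstream of a RefSeq start site in the same order. A gene could have more than 1 such site, and 39 windows were searched for the 31 genes. The Txnrd1 stretch lies inside the annotated gene, which spans 82833951 to 82897712. Of the 9 matches, that of Prdx1 also spells the AP-1 letters TGANTCA, a motif read by FOS and JUN proteins. Without a length correction, Gclm, Txnrd1 and Srxn1 of the 9 were higher in mTOR Tg replicate 2. Gsta3, Gstm5, Mgst1, Sod1 and Prdx1 were higher in replicate 1, and Nfe2l2 was nearly equal in both. The match of Srxn1 begins 29 bases downstream of the start site and is not shown. Nqo1 was searched and had no match. Gclc, Hmox1, Gsr, Prdx6, Gsta4 and Sod3 had no window and were not searched. Whether the letters go with the split between the mTOR Tg libraries was not tested.

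Of the regulators, Nfe2l2 (chromosome 2, 75675513 to 75704641, GRCm38) was at 207 and 200.4 normalised CPM in WT and at 181 and 182 in mTOR Tg. Normalised CPM are CPM whose library totals were scaled with TMM factors. Both mTOR Tg values were below both WT values, with a log2 fold change of -0.17 (SE 0.18). Keap1, whose protein is the sensor that restrains NRF2, was at 88.7 and 90.9 in WT and at 107 and 95.8 in mTOR Tg, so both mTOR Tg values were above WT (log2 fold change 0.17, SE 0.19). Keap1 exons overlap an antisense transcript in the annotation. These gaps were no larger than the standard errors.

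The enzymes that make and recycle glutathione had positive log2 fold changes in 5 of 5 genes, with a median of 0.40; without mTOR Tg replicate 2 it was 4 of 5, since Gclc turned. Gclc, the catalytic subunit of glutamate-cysteine ligase, which performs the rate-limiting step, was at 654 and 740 normalised CPM in WT, with 501 for mTOR Tg replicate 1 and 1211.5 for mTOR Tg replicate 2. The mTOR Tg libraries thus lay on opposite sides of WT, at 0.719 and 1.74 times its mean, and the log2 fold change of 0.30 (SE 0.43) describes neither. Leaving out mTOR Tg replicate 1 gave 0.80 (edgeR adjusted p = 0.00243), and leaving out replicate 2 gave -0.48 (edgeR adjusted p = 0.00895). A fit without an mTOR Tg library has 1 left, assumed to vary like the WT group, so its p holds no replication of that genotype, here and below.

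Gclm, the modifier subunit that raises the affinity of the ligase for glutamate, was at 42.5 and 44.6 in WT, with 46.1 for mTOR Tg replicate 1 and 88.3 for mTOR Tg replicate 2. Both mTOR Tg values were above WT, the first at 1.06 times its mean and the second at 2.03 times (log2 fold change 0.63, SE 0.33). Per kilobase of transcript the ratio of Gclc to Gclm levels was 14.8 and 16.0 in WT and 10.5 and 13.2 in mTOR Tg, lower in both mTOR Tg libraries while the subunits themselves went different ways in replicate 1. Gss, the synthetase of the second step, showed the other order, at 45.3 and 45.8 in WT and 74.9 and 53.6 in mTOR Tg replicates 1 and 2 (log2 fold change 0.50, SE 0.23). Its exons overlap those of Acss2 and of antisense transcripts in the annotation, and the strand setting of the counts is not known.

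Gsr, which returns oxidised glutathione to its reduced form, was among the most even of the set. It was at 73.1 and 76.0 in WT and at 91.9 and 105 in mTOR Tg, both above WT. The log2 fold change was 0.40 (SE 0.19), with the length correction as without. Esd, an esterase that completes the glutathione-dependent removal of formaldehyde, was at 54.7 and 52.3 in WT and at 64.5 and 70.2 in mTOR Tg (log2 fold change 0.33, SE 0.19). With the length correction that of Esd was 0.12, and mTOR Tg replicate 1 then lay at -0.21 from the WT mean and replicate 2 at 0.40.

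In the thioredoxin system Srxn1 stood out. It encodes sulfiredoxin, which repairs peroxiredoxins whose cysteine has been overoxidised, and it lies on chromosome 2 from 152105516 to 152111376. Its level was 27.1 and 27.1 normalised CPM in WT, with 36.9 for mTOR Tg replicate 1 and 81.2 for mTOR Tg replicate 2, from 493, 537, 752 and 1696 counts. The mTOR Tg libraries were at 1.36 and 3.0 times the WT mean, and the WT libraries differed by less than 0.01 on the log2 scale. The log2 fold change of 1.12 (SE 0.39) was the largest of the 37 genes and remained 1.13 with the length correction. It had an unadjusted p of 0.0300 and an adjusted p of 0.860 in edgeR. Leaving out mTOR Tg replicate 1 gave 1.58 (edgeR adjusted p = 1.57e-07), and leaving out replicate 2 gave 0.44 (edgeR adjusted p = 0.0120).

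Txnrd1 encodes the selenoenzyme that reduces thioredoxin with NADPH. It was at 159 and 179 in WT, with 159 for mTOR Tg replicate 1 and 268 for mTOR Tg replicate 2, so only the second lay above WT (log2 fold change 0.34, SE 0.29, and -0.08 without that library). Txn1, thioredoxin itself, was at 245 and 229 in WT and at 287 and 267 in mTOR Tg (log2 fold change 0.23, SE 0.19, and 0.02 with the length correction). With the length correction Txn1 lay at -0.15 from the WT mean in mTOR Tg replicate 1 and 0.18 in replicate 2, so that, as for Txnrd1, replicate 2 was then the higher.

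The peroxiredoxins, which use thioredoxin or glutathione to reduce peroxides, were led by mTOR Tg replicate 1. Prdx6, the bifunctional member that also acts on surfactant phospholipids in the lung, was at 776 and 849 in WT, with 1646 for mTOR Tg replicate 1 and 935 for mTOR Tg replicate 2. Both mTOR Tg values were above WT, at 2.03 and 1.15 times its mean (log2 fold change 0.67, SE 0.32, and 0.20 without mTOR Tg replicate 1). Prdx5, found in mitochondria, peroxisomes and cytosol, was at 171 and 154 in WT and at 299 and 175 in mTOR Tg, and Prdx1, the main cytosolic one, at 317 and 314 in WT and at 430.5 and 344 in mTOR Tg. The log2 fold change of Prdx5 was 0.55, and 0.26 with the length correction and 0.11 without mTOR Tg replicate 1. For Prdx1 these values were 0.30, 0.13 and 0.12. The mitochondrial Prdx3 went the other way by a small margin, at 45.9 and 46.9 in WT and at 44.0 and 45.0 in mTOR Tg (log2 fold change -0.06, SE 0.19). Exons of Prdx5 overlap the antisense gene Trmt112 and those of Prdx2 the antisense gene Rnaseh2a, with 15.5% and 12.0% of windows shared with other genes, so their counts may include reads of those genes. Prdx2, abundant in red cells as well, lay higher than WT in mTOR Tg replicate 1 but lower in replicate 2, at 1.49 and 0.934 times the mean. The 7 red cell markers summed to 2549 and 3683 CPM in WT, 3235 CPM in replicate 1 and 1041 CPM in replicate 2. In replicate 1 that sum was thus within the WT range. The part of red cells in the Prdx2 levels was not tested.

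Quinone and haem breakdown genes were 3 of 3 higher in mTOR Tg replicate 2 than in replicate 1. Hmox1, the inducible enzyme that opens the haem ring, was at 57.6 and 55.2 in WT and at 71.0 and 103 in mTOR Tg, both above WT (log2 fold change 0.62, SE 0.24, unadjusted p of 0.0455 and adjusted p of 0.860 in edgeR). With the length correction the log2 fold change of Hmox1 was 0.50. Replicate 1 of mTOR Tg then lay at only 0.03 from the WT mean, and replicate 2 at 0.86. Nqo1, a quinone reductase used as a standard readout of NRF2, was at 9.88 and 13.7 in WT, with 13.3 for mTOR Tg replicate 1 and 23.6 for mTOR Tg replicate 2. The WT libraries were themselves 0.47 apart on the log2 scale, and mTOR Tg replicate 1 lay between them. Blvrb, a biliverdin and flavin reductase, was at 35.2 and 29.7 in WT and at 38.2 and 42.1 in mTOR Tg (log2 fold change 0.31, SE 0.21, and 0.10 with the length correction).

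**Figure D2:**
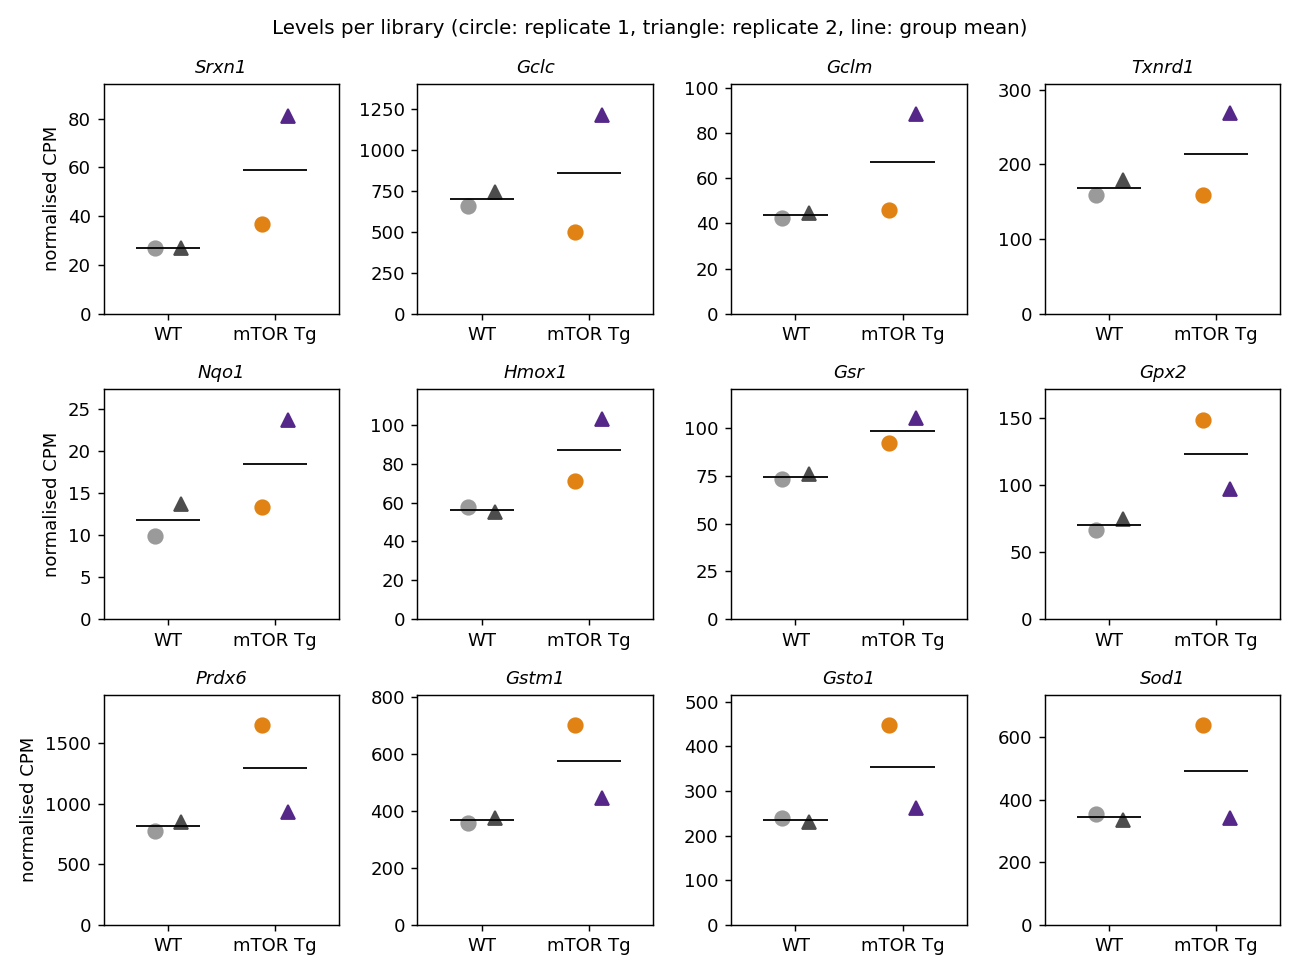
Normalised CPM of 12 genes in each library, with circles for replicate 1, triangles for replicate 2 and lines for group means; vertical axes start at 0. Srxn1, Gclc, Gclm, Txnrd1, Nqo1 and Hmox1 peak in mTOR Tg replicate 2, and Gpx2, Prdx6, Gstm1, Gsto1 and Sod1 in mTOR Tg replicate 1.

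All 4 glutathione peroxidases, selenoenzymes that spend glutathione on peroxides, were higher in mTOR Tg replicate 1 than in replicate 2, and 3 of 4 with the length correction, under which Gpx1 turned. Gpx2, the epithelial form known as an NRF2 target, was at 66.3 and 74.4 in WT, with 148 for mTOR Tg replicate 1 and 97.3 for mTOR Tg replicate 2. Its 2 groups did not overlap, and its log2 fold change of 0.80 (SE 0.26, unadjusted p of 0.0242 and adjusted p of 0.860 in edgeR) was 0.56 with the length correction, 0.47 without mTOR Tg replicate 1 and 1.08 without the other. Gpx3, the secreted plasma form, was covered by 105, 144, 259 and 183 reads and was at 5.76 and 7.27 in WT and at 12.7 and 8.76 in mTOR Tg. Gpx4, which protects membranes from lipid peroxides, was the highest of the family per kilobase, at 371 and 316 normalised CPM in WT and 579.5 and 355 in mTOR Tg, so replicate 2 fell within the WT range. Gpx1, the general cytosolic form, was at 1.32 and 1.03 times the WT mean and its log2 fold change of 0.23 became -0.02 with the length correction. Pseudogenes share 34.7% of the 50-base windows of Gpx4 transcripts, and its counts are uncertain to that extent.

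The glutathione transferases join glutathione to electrophiles, and club cells are known to be rich in them. All 11 had positive log2 fold changes, though only 9 with the length correction and 6 without mTOR Tg replicate 1, and the median was 0.47. In 11 of 11 mTOR Tg replicate 1 was higher than replicate 2, but with the length correction in only 7 of 11, since Gsta2, Gstt1, Mgst1 and Gstp1 turned. Their summed level was 2025 and 2039 normalised CPM in WT, with 3298 for mTOR Tg replicate 1 and 2088 for mTOR Tg replicate 2. The club cell, ciliated cell and type I cell marker sums given above were also highest in mTOR Tg replicate 1. Without a length correction the markers Krt15, Ccdc39 and Dnah5 were not. With it, 7 of 8 club cell, 7 of 8 ciliated cell and 4 of 6 type I cell markers were higher in replicate 1 than in replicate 2. The part of these cell types in the transferase levels was not tested. Leaving out mTOR Tg replicate 1 gave a median of 0.01, and leaving out replicate 2 one of 0.80; with the length correction it was 0.20.

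Gstm1, the major mu-class enzyme, was at 358 and 374 in WT and at 702 and 447 in mTOR Tg, both above WT (log2 fold change 0.65, SE 0.28). Other genes such as Gstm3 and Gstm2 share 18.9% of its 50-base windows, so its counts are uncertain to that extent. On chromosome 3 Gstm2 lies 25.8 kb from Gstm1, and Gstm5 a further 83.0 kb away. Gstm2 was at 148 and 153 in WT, with 281 for mTOR Tg replicate 1 and 125 for mTOR Tg replicate 2. Gstm5 had 25, 34, 66 and 25 counts. Its exons overlap an antisense transcript. In both genes mTOR Tg replicate 1 was above WT and replicate 2 below it, and the log2 fold changes without mTOR Tg replicate 1 were -0.27 and -0.37.

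Gsto1, the omega-class enzyme, was at 239 and 230.0 in WT and at 448 and 261 in mTOR Tg. Gstp1, the pi-class enzyme, was at 230.0 and 226 in WT and at 370 and 263 in mTOR Tg. Gstp2, which starts 2.30 kb beyond it on chromosome 19, was at 9.49 and 10.7 in WT and at 21.5 and 14.5 in mTOR Tg, with a log2 fold change of 0.83 (SE 0.27, unadjusted p of 0.0250 in edgeR). All 3 genes had both mTOR Tg libraries above WT. Of the 50-base windows of their transcripts, 54.3% in Gstp2 and 33.7% in Gstp1 occur in another gene, mainly each other, so the split of reads between them is uncertain; Gstp2 made up 3.96% and 4.52% of their joint counts in WT, compared with 5.49% and 5.23% in mTOR Tg.

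Of the alpha class, Gsta2 was at 10.2 and 12.5 in WT and at 16.4 and 15.6 in mTOR Tg, with both libraries above WT. With the length correction they lay at 0.06 and 0.47 from the WT mean and the log2 fold change went from 0.50 to 0.27. Of its windows 49.8% are shared with other genes such as Gsta1. Gsta3 and Gsta4 were at 1.71 and 1.74 times the WT mean in mTOR Tg replicate 1 and at 1.01 and 0.863 times in replicate 2. On chromosome 9 Gclc, Gsta4 and Gsta2 follow each other with gaps of 388 and 122 kb; Gclc was highest in mTOR Tg replicate 2 while Gsta4 was highest in replicate 1. Mgst1, the microsomal enzyme and per kilobase the highest of the 37 genes in WT, was at 494 and 498 in WT and at 609 and 454 in mTOR Tg, with a log2 fold change of 0.10 (SE 0.23) that was -0.15 with the length correction. Gstt1, a theta-class enzyme, was at 1.17 and 0.985 times the WT mean.

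Superoxide dismutases and catalase had 0 of 4 genes with groups apart, where 17.6% of all genes lay above WT without overlap and 17.0% below. Sod1, the cytosolic copper and zinc enzyme, was at 353.5 and 334 in WT, with 639 for mTOR Tg replicate 1 and 343 for mTOR Tg replicate 2, which lay inside the WT range. Cat, the peroxisomal enzyme that splits hydrogen peroxide, was at 884 and 822 in WT, with 586 for mTOR Tg replicate 1 and 825 for mTOR Tg replicate 2. Like Gclc it lay below WT in replicate 1, at 0.687 times the mean, with a log2 fold change of -0.27 (SE 0.25) that was -0.05 without mTOR Tg replicate 1. Sod2, the mitochondrial enzyme, was at 115 and 116 in WT and 121 and 114 in mTOR Tg. Its log2 fold change was 0.03 (SE 0.18), and 0.33 with the length correction. Other genes share 21.0% of the 50-base windows of Sod2. The extracellular Sod3 had 40, 33, 44 and 66 counts.

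**Figure D3:**
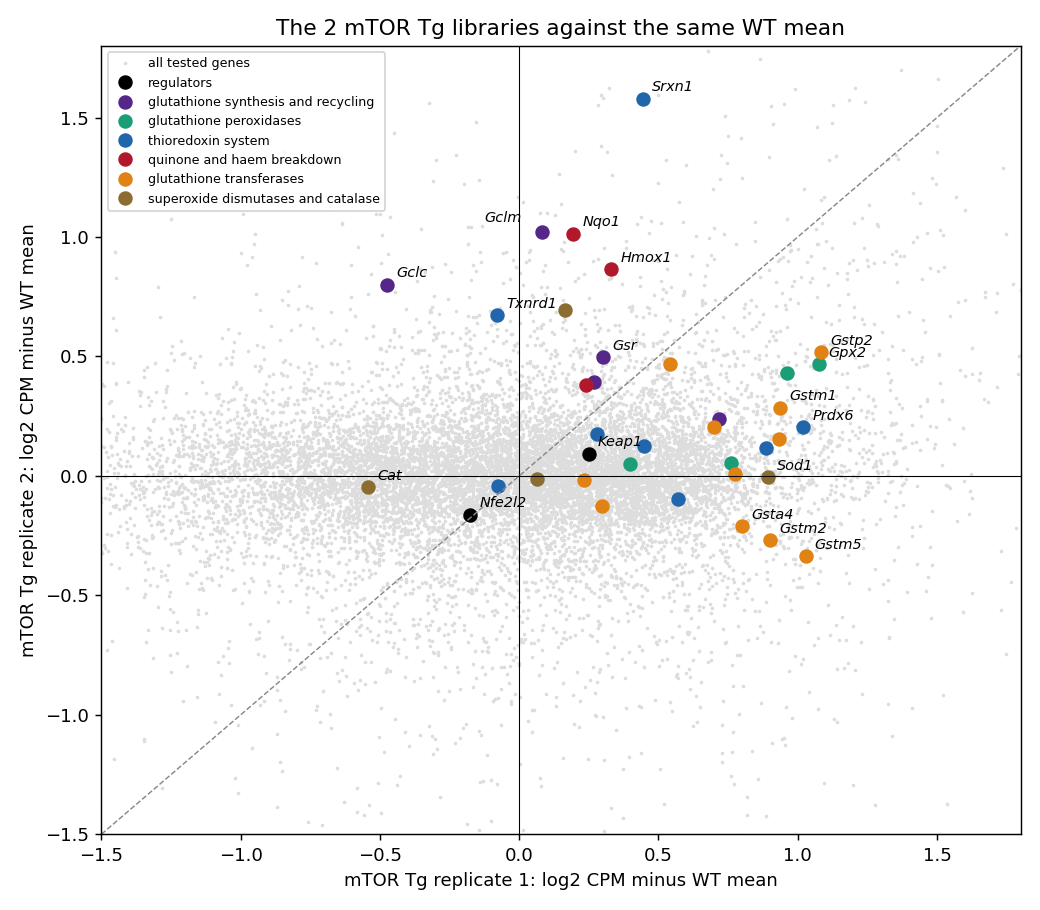
Log2 CPM minus the WT mean in mTOR Tg replicate 1 (horizontal) and replicate 2 (vertical), with the 37 genes coloured by role, all tested genes in grey within the plotted range and a dashed line of equality. Without a length correction, the 11 transferases lie below the line (7 of 11 with it), and Srxn1, Gclm, Nqo1, Hmox1, Txnrd1 and Gclc above it.

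Each mTOR Tg library was also set against the same WT libraries in turn. In the fit without mTOR Tg replicate 1, edgeR called 8 of the 37 genes higher after adjustment, where 1.25% of all genes were called higher, and 0 lower, where 0.948% were. They were Srxn1, Gclm, Nqo1, Hmox1, Gclc, Txnrd1, Gsr and Gpx2, with log2 fold changes from 1.58 in Srxn1 to 0.47 in Gpx2. In the fit without mTOR Tg replicate 2 it called 22 higher and 2 lower, where 21.8% and 23.6% of all genes were called. Those 22 held 9 of the 11 transferases and all 4 peroxidases, and the 2 lower genes were Gclc and Cat. The 2 fits share their WT libraries and neither has a second mTOR Tg library. Leaving out WT replicate 1 or WT replicate 2 gave 0 of the 37, with 0.0729% and 0.0802% of all genes called higher and 0.00729% and 0.0292% lower, and the fit with replicate number as a block gave 0 with 0.165% higher and 0.113% lower. Groups apart with mTOR Tg higher numbered 24 of the 37 without WT replicate 1 (background 29.0%) and 22 without WT replicate 2 (26.6%). They numbered 23 when mTOR Tg replicate 1 was left out (35.1%) and 30 when replicate 2 was (44.7%). With mTOR Tg lower they numbered 2, 3, 8 and 4 in the same order, where the backgrounds were 28.2%, 26.5%, 35.5% and 43.5%. Leaving out a library can only keep or raise these counts and their backgrounds. With library totals alone 19 were apart and higher (15.3%) and 2 apart and lower (18.7%).

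**Figure D4:**
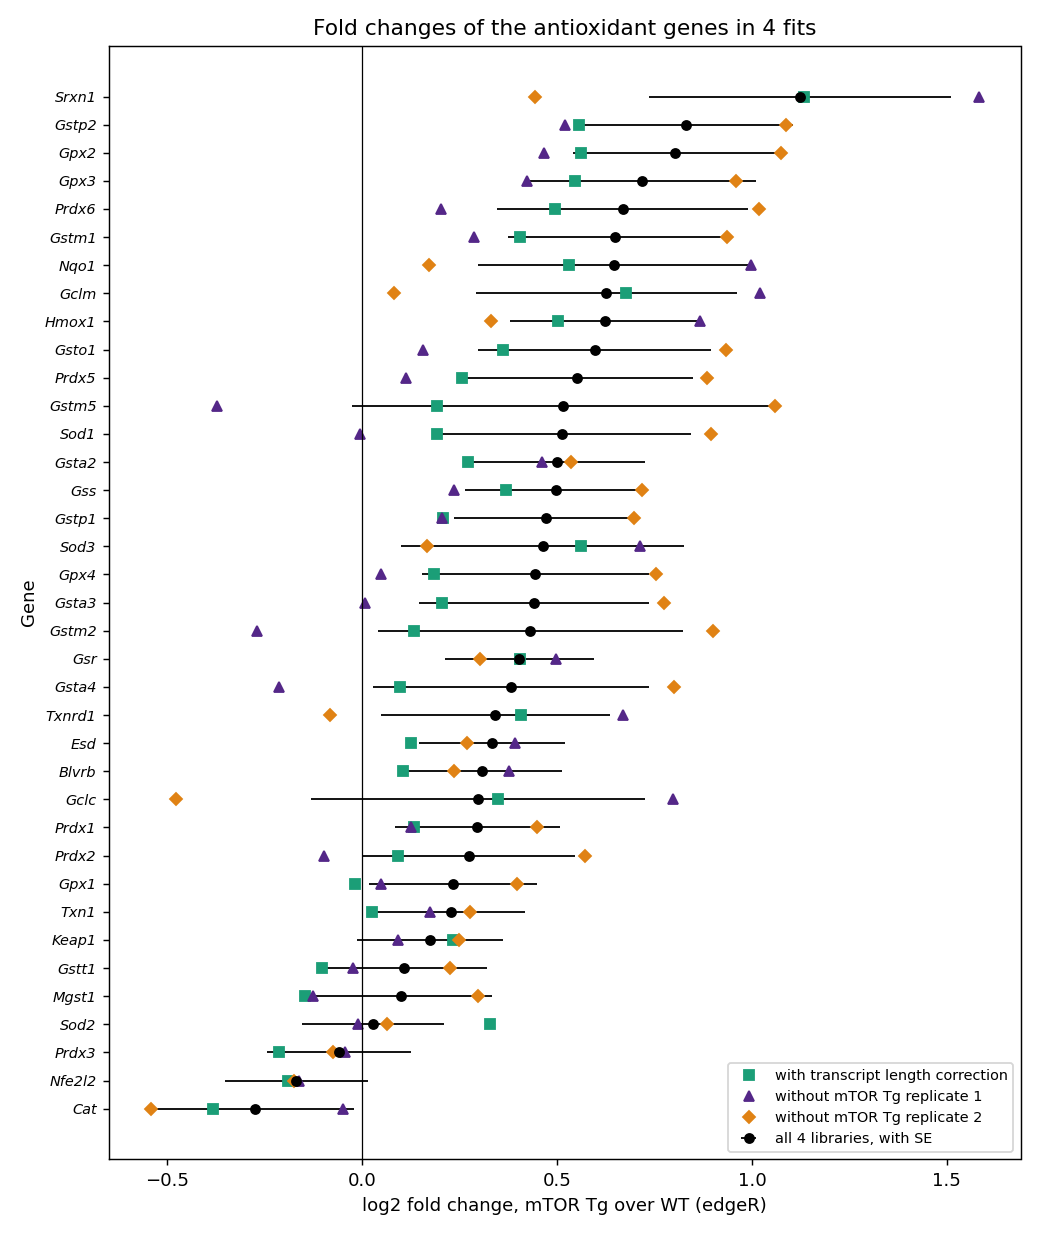
Log2 fold changes of mTOR Tg over WT for the 37 genes, from all 4 libraries (black, bars are standard errors), with the transcript length correction (green squares) and without either mTOR Tg library (purple triangles without replicate 1, orange diamonds without replicate 2). Gclc runs from -0.48 to 0.80 and Gstm5 from -0.37 to 1.06, while Gsr stays between 0.30 and 0.50.

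Scaled per kilobase of transcript, the WT means of the 37 genes ran from 0.517 normalised CPM per kb in Sod3 to 543 in Mgst1. Sod1, Cat, Prdx6 and Gpx4 followed Mgst1 at 537, 503, 486 and 358, so the most abundant genes of the system were a microsomal transferase and enzymes acting directly on superoxide and peroxides. Of the genes that were highest in mTOR Tg replicate 2, Nqo1 at 7.60, Srxn1 at 9.63 and Gclm at 13.2 ranked 34, 33 and 30 of 37 in WT. Hmox1 at 35.9, Txnrd1 at 49.2 and Gclc at 204 ranked 24, 22 and 11. Blvrb, Esd, Gsr and Sod3, also highest in that library, ranked 23, 21, 27 and 37.

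**Figure D5:**
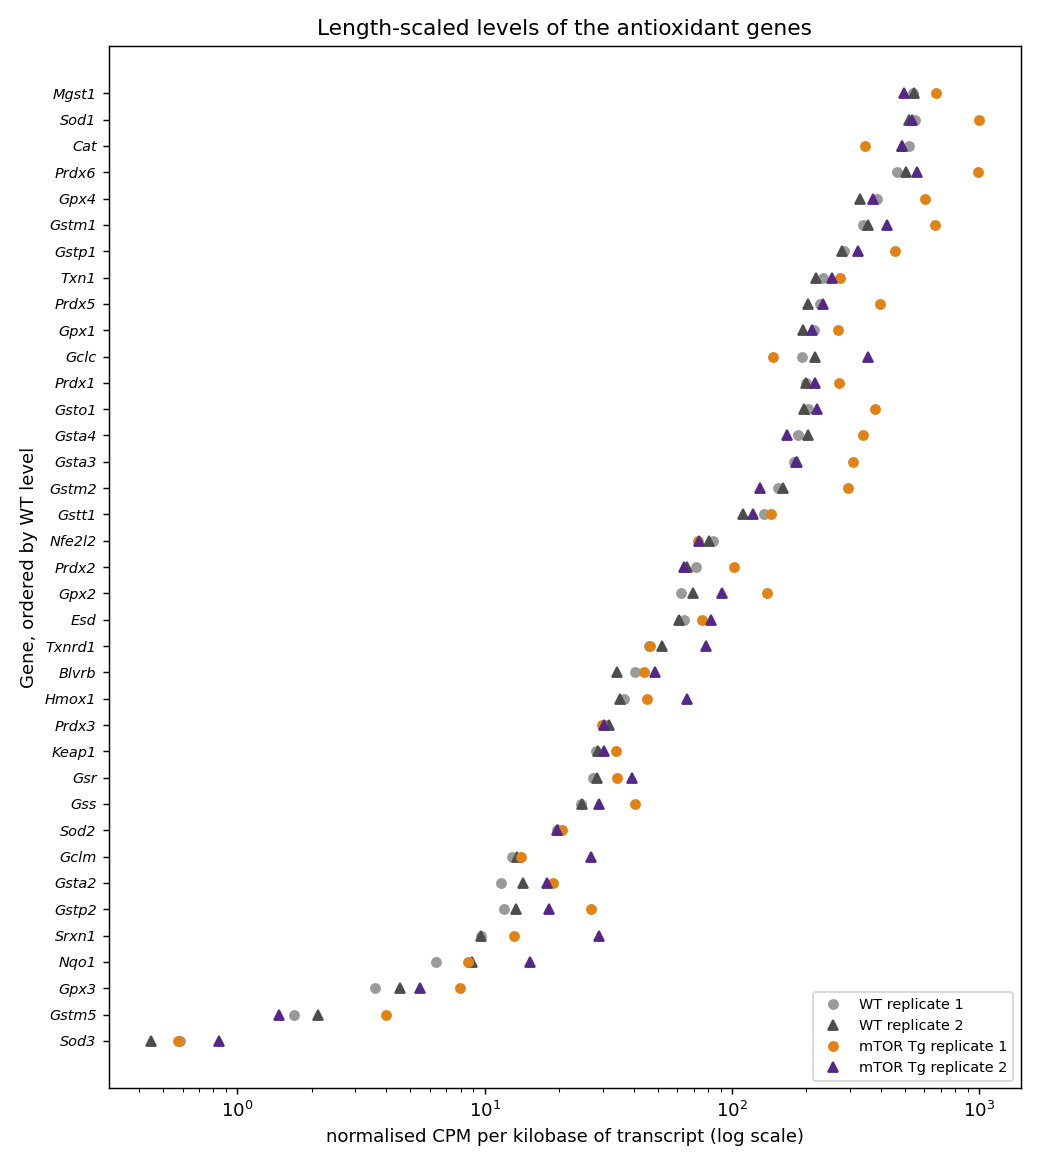
Normalised CPM per kilobase of transcript in each library on a log axis, with genes ordered by their WT mean. Levels span from 0.517 in Sod3 to 543 in Mgst1 in WT, and mTOR Tg replicate 1 (orange) is the rightmost mark for most of the genes at the top. Scaling per kilobase is not the length correction and leaves the order of libraries within a gene unchanged. With the length correction the order of the mTOR Tg libraries turned in Mgst1, Gstp1, Txn1 and Gpx1, and held in Sod1, Prdx6, Gpx4 and Gstm1.

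Other genes of the same pathways were taken from lists made for this work, with earlier results of these data known. Their counts are therefore descriptions and not a separate check. Of 21 other known NRF2 targets 0 were called, 20 had a log2 fold change above 0 (50.9% of all genes) and 13 had both mTOR Tg libraries above WT (17.6% of all genes), with a median of 0.41 (0.25 without mTOR Tg replicate 1, 0.29 with the length correction). Their 3 smallest p-values were those of Cbr3, Akr1b8 and Slc7a11. The carbonyl reductase gene Cbr3 had a log2 fold change of 1.34 (SE 0.27), and the aldo-keto reductase gene Akr1b8 was at 26.6 and 24.9 in WT and at 41.1 and 47.5 in mTOR Tg (0.78, SE 0.20). Slc7a11, which brings in the cystine needed for glutathione, followed Gclc and Gclm in being highest in mTOR Tg replicate 2, at 2.41 and 2.63 in WT, with 2.65 for mTOR Tg replicate 1 and 55.2 for mTOR Tg replicate 2.

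Among 10 partners and regulators of NRF2, 7 were positive (50.9% of all genes), with a median of 0.10. Maff, a small MAF partner, was at 24.4 and 25.3 in WT and at 41.1 and 34.3 in mTOR Tg (log2 fold change 0.60, SE 0.21). Sqstm1, the autophagy receptor that binds KEAP1, was at 383 and 351 in WT and at 507 and 454.5 in mTOR Tg (0.39, SE 0.20), and Mafg at 60.4 and 78.5 and at 81.2 and 89.4. In all 3 genes both mTOR Tg libraries were above WT, but they were picked for the smallest p of the list in edgeR. Over the list 4 of 10 lay above WT without overlap (17.6% of all genes) and 1, Cul3, below (17.0%). The negative log2 fold changes were those of Bach1 (-0.31, SE 0.47), Gsk3b (-0.39, SE 0.50) and Cul3 (-0.22, SE 0.23).

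Of 31 other glutathione genes 27 could be tested, 21 were positive and 0 were called, with a median of 0.21. With the length correction 16 were positive and the median was 0.05, and without mTOR Tg replicate 1 the values were 12 and -0.01. Ggt1, the enzyme that breaks down extracellular glutathione, was low throughout, at 0.384 and 1.01 in WT and at 1.96 and 3.35 in mTOR Tg (log2 fold change 1.91, SE 0.56). Mgst3 was at 15.7 and 15.9 in WT and at 30.9 and 19.8 in mTOR Tg, and Chac1, a glutathione-degrading enzyme, at 0.494 and 0.859 and at 2.11 and 1.10. Of 15 other thioredoxin and repair genes 12 were positive and 0 were called, with a median of 0.15. With the length correction 8 were positive and the median was 0.03, and without mTOR Tg replicate 1 the values were 7 and -0.03. Txnip, which binds and inhibits thioredoxin, was at 430.4 and 406 in WT and at 603 and 554 in mTOR Tg (0.47, SE 0.20), and Txnrd3 at 53.6 and 46.9 in WT and at 32.0 and 44.0 in mTOR Tg. Msrb1, a methionine sulfoxide reductase, overlapped between groups.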

How the data were processed

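The deposited table holds raw whole-number counts by gene symbol. HISAT2, edgeR and build mm10 are named per the submitters' processing notes. For the counting program, annotation and strand setting, nothing is stated: they were not given in the sources used here. Columns were tied to samples by the labels. The fit used edgeR 4.0.16 (R 4.3.3): filterByExpr by group (minimum count 10), TMM factors (0.928 to 1.04), glmQLFit without the legacy option and glmQLFTest with genotype as the only term, adjusted by Benjamini-Hochberg over 13306 genes at 0.05. Standard errors are the log2 fold change divided by the square root of F. Log2 CPM used a prior count of 2. A count of 3 corresponds to 0.137 to 0.165 CPM, a limit covering counting error only. Transcript lengths are medians over GENCODE M21 basic transcripts (GRCm38), found for 98.6% of tested genes; the length correction removed a smooth of each library's log2 deviation on length (span 0.3). Shared sequence was counted in 50-base windows. The code was tested on simulated counts.

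The members and all gene lists were chosen with earlier results of these data known. The rule named genes whose groups did not overlap, the regulators, the highest of each role, and up to 3 genes with the smallest p of each other list. Alternatives were RLE scaling (as in DESeq2), library totals, no filter or a minimum count of 50, DESeq2 1.42.0, limma-voom (limma 3.58.1), a replicate block, the length correction and leaving out each library.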

Additional observations from a re-analysis of the deposited data

How the results depend on the processing

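The 37 antioxidant genes had 0 calls under all alternatives with 4 libraries. Among all genes edgeR called 0, DESeq2 called 12 (9 higher, 3 lower), limma-voom 0, and the fit with the replicate block 37. The titles number replicates but name no shared animal or batch, and same-numbered libraries deviated together with r = 0.0708 over 13306 genes, so the numbers were not taken as a pairing; the block leaves 1 residual degree of freedom. Leaving out 1 library gave 11 to 6197 genes, 0 to 24 of the 37, and a median of the 37 from 0.17 to 0.45; with the length correction the median was 0.23. The count of antioxidant genes with mTOR Tg above WT without overlap, chosen after seeing the data, was 19 with all 4 libraries. It ran from 22 to 30 with 1 library left out, but leaving out a library can only keep or raise it. The share of all genes rose as well, from 17.6% to between 26.6% and 44.7%. The sign held in 26 of the 37 genes in all fits run. It turned with library totals in Sod2 (-0.037) and with the length correction in Gpx1 (-0.019), Gstt1 (-0.10) and Mgst1 (-0.15). Across the fits with 1 library left out, log2 fold changes ran from -0.48 to 0.80 in Gclc, -0.083 to 0.67 in Txnrd1, -0.21 to 0.80 in Gsta4, -0.27 to 0.90 in Gstm2, -0.37 to 1.06 in Gstm5, -0.027 to 0.25 in Gstt1, -0.13 to 0.30 in Mgst1, -0.10 to 0.57 in Prdx2, -0.0046 to 0.89 in Sod1 and -0.011 to 0.065 in Sod2. With the length correction Sod2 went from 0.03 to 0.33. The cause was not tested. Precision is limited by 2 libraries a genotype and by the spread of the mTOR Tg pair, whose biological coefficient of variation was 0.325, against 0.0891 in WT.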
